A study of Sus scrofa with 2 samples.

Results

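The WNT signalling genes followed in single cells of 2 pig antral follicles were the ligands WNT6 and WNT10B, the Frizzled receptors FZD4 and FZD5, the receptor-related genes LRP4, LRP5 and LRP6, the secreted inhibitors DKK1 and SFRP1, and the feedback gene AXIN2. The 10 members were the rows of the deposited gene list whose symbol equalled a member's name, out of 22342 genes, and each was found in both count matrices. Antral follicles more than 7 mm wide had been punctured and flushed. Their cumulus-oocyte complexes were isolated and pipetted in hyaluronidase, which strips off cumulus cells. Granulosa cells were then collected from the fluid, and the somatic cells of each follicle gave 1 library. The study identified both mural and cumulus granulosa cells in these libraries. The follicles, AF75 and AF76, came from 1 Landrace × Yorkshire gilt of 210 days that had been given pregnant mare serum gonadotropin per the study's methods, so breed, age, hormone and animal were shared, while follicle and library cannot be told apart. Cells were barcodes with 2000 to 5000 genes and under 7% mitochondrial UMIs, a UMI being the tag that marks 1 captured RNA molecule. These limits kept 9362 of 14289 barcodes in AF75, with 111226504 UMIs, and 7843 of 15548 in AF76, with 108920601 UMIs. The median cell held 11254.5 UMIs in AF75 and 13902 in AF76, and 18 of the kept barcodes occurred in both libraries. INHA, which encodes the inhibin alpha subunit and marks granulosa cells, stood at 19854 UMIs per 1000000 (CPM) in AF75 and 23176 CPM in AF76.

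WNT ligands are secreted proteins that bring a Frizzled receptor and the co-receptor LRP5 or LRP6 together at the cell surface. In the canonical branch this stabilises beta-catenin, which enters the nucleus and acts with TCF and LEF proteins at genes carrying a short CTTTG core. In the ovary, WNT signals are known for their part in female gonad formation and in granulosa cell growth. DKK1 binds LRP5 and LRP6 and blocks them, while SFRP1 resembles the ligand-binding part of a Frizzled and can bind WNT proteins outside the cell. AXIN2 belongs to the complex that destroys beta-catenin and is itself switched on by the pathway, for which it is widely read as a sign of canonical activity. LRP4 is a relative of LRP5 and LRP6, best known as the agrin receptor of the neuromuscular junction, and it can bind DKK1 and sclerostin.

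The RefSeq annotation of Sscrofa11.1 placed WNT6 on chromosome 15 (120901471-120917359, plus strand), 7844 bases from WNT10A, and WNT10B on chromosome 5 (14997377-15013928, minus strand), where it overlaps WNT1 on the other strand. WNT10A had 0 UMIs in both follicles and WNT1 had 1 UMI in AF75 and 0 in AF76. FZD4 lies on chromosome 9 (20714995-20721460, minus strand), FZD5 on chromosome 15 (110913990-110921388, minus strand), LRP4 on chromosome 2 (15616137-15672876, plus strand), LRP5 on chromosome 2 (4533721-4653997, minus strand) and LRP6 on chromosome 5 (60149041-60318719, plus strand). DKK1 lies on chromosome 14 (97487854-97490118, minus strand) and SFRP1 on chromosome 17 (10436414-10489773, minus strand). AXIN2 lies on chromosome 12 (12311293-12343207, minus strand), where a CEP112 model overlaps it on the same strand. How reads of the overlap were counted, or whether they were left out, was not tested.

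AXIN2 and DKK1 are shown by sequence because they were the 2 of 10 members whose 250 bases before the annotated start held CTTTGAA or CTTTGAT, the core letters of a TCF and LEF motif, searched on both strands. The same letters occurred before 1110 of 19559 protein-coding genes of the RefSeq annotation, which is 5.68%. The capitals mark the motif, which began 16 bases before the AXIN2 start and 235 bases before the DKK1 start, and for DKK1 only the 30 bases around it are given. The stretches read 5′ to 3′ on the minus strand, at chr12:12343208-12343457 for AXIN2 and chr14:97490335-97490364 for DKK1.
AXIN2: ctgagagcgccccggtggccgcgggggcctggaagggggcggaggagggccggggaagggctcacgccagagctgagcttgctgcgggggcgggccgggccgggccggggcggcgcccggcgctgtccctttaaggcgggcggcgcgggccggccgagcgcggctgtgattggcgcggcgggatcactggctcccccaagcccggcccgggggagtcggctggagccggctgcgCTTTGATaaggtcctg
DKK1: ccctcccaacgCTTTGAAatcccaaccctg
The 2 genes that share these letters differed widely in level and in the cells that held them, as given below, and the other 8 members had none of the letters in this window.

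Levels were compared as CPM summed over the cells of a follicle. A UMI marks 1 captured 3′ end whatever the length of its transcript, so levels of different genes were set side by side with no length scaling. Whether the annotation used for counting reached each gene's 3′ end was not tested, so rankings between genes carry that limit. The longest RefSeq transcript of DKK1 was 801 bases, beside 4351 for FZD4 and 8086 for LRP4. Each follicle was 1 library and its cells were no replicates, so no test between follicles was possible. Intervals are exact 95% intervals that cover counting error only, and a difference is called past the fold at 1.5-fold, for any gene that reached 200 UMIs in either follicle.

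LRP4 was by far the most abundant member. It had 43921 UMIs in AF75 (395 CPM, interval 391 to 399) and 40462 in AF76 (371 CPM, 368 to 375), and 83.0% and 83.2% of cells held at least 1 LRP4 UMI. The next 6 members lay between 17.9 and 35.9 CPM in both follicles, about an order of magnitude lower on the same scale. FZD4 had 35.5 CPM in AF75 and 28.5 in AF76, and FZD5 had 31.3 and 29.5 CPM. LRP6 stood at 29.1 and 26.1 CPM and LRP5 at 18.7 and 17.9 CPM. The ligand WNT10B had 20.8 and 18.2 CPM, and the inhibitor DKK1 had 33.7 and 35.9 CPM. In AF75 the order was LRP4, FZD4, DKK1, FZD5, LRP6, WNT10B and LRP5, and in AF76 it was LRP4, DKK1, FZD5, FZD4, LRP6, WNT10B and LRP5. Counting intervals overlapped between FZD4 and DKK1 in AF75, between FZD4 and FZD5 in AF76, and between WNT10B and LRP5 in AF76.

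WNT6, AXIN2 and SFRP1 were rare. WNT6 had 4 UMIs in AF75 (0.036 CPM, interval 0.0098 to 0.0921) and 78 in AF76 (0.716 CPM, 0.566 to 0.894). AXIN2 had 44 UMIs in AF75 (0.396 CPM, 0.287 to 0.531) and 83 in AF76 (0.762 CPM, 0.607 to 0.945). SFRP1 had 63 UMIs in AF75 (0.566 CPM, 0.435 to 0.725) and 7 in AF76 (0.064 CPM, 0.0258 to 0.132). WNT6 and AXIN2 were thus higher in AF76 and SFRP1 in AF75, and none of the 3 intervals overlapped between the follicles.

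**Figure D1:**
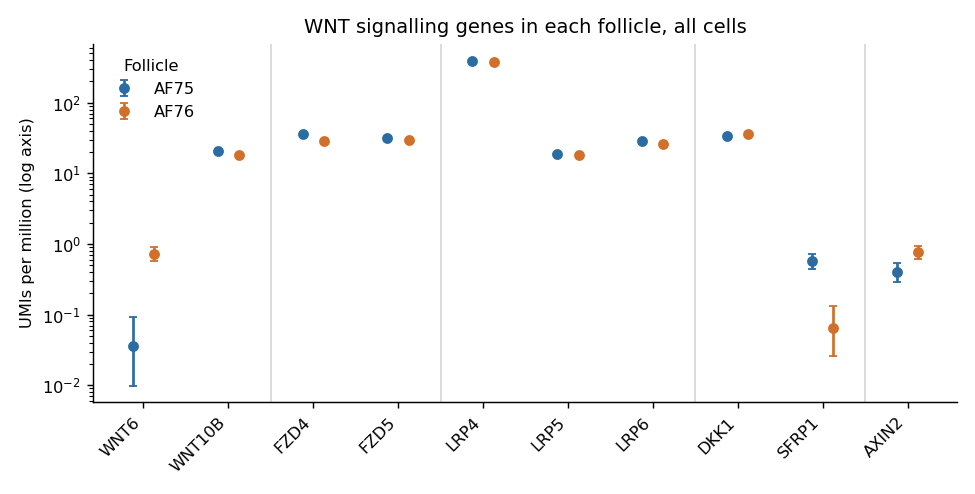
UMIs per 1000000 of each gene over all cells of AF75 (blue) and AF76 (orange) on a log axis, with exact 95% counting intervals; grey lines part ligands, receptors, LRP genes, inhibitors and AXIN2. The 7 well-counted genes sit side by side in both follicles, with LRP4 at 395 and 371 CPM, while WNT6, SFRP1 and AXIN2 lie under 1 CPM and apart between follicles.

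The share of cells with a UMI followed the level for most members, and was read beside barcodes that should lack these genes. FZD4 was seen in 28.5% and 27.2% of cells, FZD5 in 26.5% and 29.2%, LRP6 in 28.1% and 29.4%, LRP5 in 19.2% and 21.1%, and WNT10B in 16.4% and 16.3%. With each cell thinned to 5000 UMIs (19 shallower AF75 cells and 105 of AF76 dropped), the shares were 14.7% and 12.8% for FZD4, 13.7% and 13.4% for FZD5, 8.86% and 8.71% for LRP5, and 68.8% and 67.9% for LRP4. Among 46 red-cell barcodes of AF76, with a median of 3602 UMIs, 6 held LRP4 (13%), 3 held DKK1 (6.52%), and 1 each held FZD4 and LRP6. WNT6, WNT10B, FZD5, LRP5, AXIN2 and SFRP1 were seen in 0 of these 46 barcodes, which allows a share of up to 6.52%. LRP4 stood at 33.5 CPM in the red-cell barcodes (interval 12.3 to 72.9) and at 42.6 CPM in 12 leukocyte barcodes of AF76 (11.6 to 109), so levels near these are read as background. DKK1 was seen in 7.94% of cells of AF75 and 6.83% of AF76. Its share in the red-cell barcodes of AF76 had an interval of 1.37% to 17.9%, and each of the 3 held 1 UMI. These barcodes held fewer UMIs than the cells, and 0 of 12 red-cell barcodes of AF75 held DKK1, so the shares are not matched. As a precaution, cells with a single DKK1 UMI are not read as expressing it.

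Over all cells, 0 of the 7 tested members were past the fold between follicles, beside 5.65% of the 10049 genes tested. Their median absolute log2 ratio was 0.09, and that of all genes 0.12. FZD4 had the lowest ratio of AF76 to AF75, at 0.802 (interval 0.765 to 0.841), and DKK1 the highest, at 1.07 (1.02 to 1.11). WNT6 was 19.9 times higher in AF76 (7.47 to 74.9), AXIN2 1.93 times higher (1.32 to 2.84), and SFRP1 8.81 times higher in AF75 (4.04 to 22.8), but the 3 had too few UMIs to enter the count. How these rare genes lay over the cells was followed by cluster.

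Cells were clustered on variable genes from which the members and the other WNT genes had been left out, so no WNT gene shaped the clusters. The clusters are called by leading genes and were given no cell type. The largest, led by TGFB3, ENPP2 and IL33, held 6415 cells of AF75 and 5949 of AF76. A cluster led by ARPP21, ALPK2 and SHAS2 held 2302 and 898 cells, a dividing cluster led by TOP2A held 453 and 120, and one led by ALDH1A2 held 172 and 164. A cluster led by DEFB1, CEMIP and CCDC80 held 1 cell of AF75 and 659 of AF76, and one of 30 cells was found in AF76 alone. WNT6 itself came first among the leading genes of these 30 cells, which also held KRT8 and CCL26, and the cluster is called by KRT8. The CEMIP and KRT8 clusters are thus nearly or wholly of 1 library, and the cluster and the library cannot be told apart for them. A mixed group of 19 and 23 cells with interferon and leukocyte genes is not described further.

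**Figure D2:**
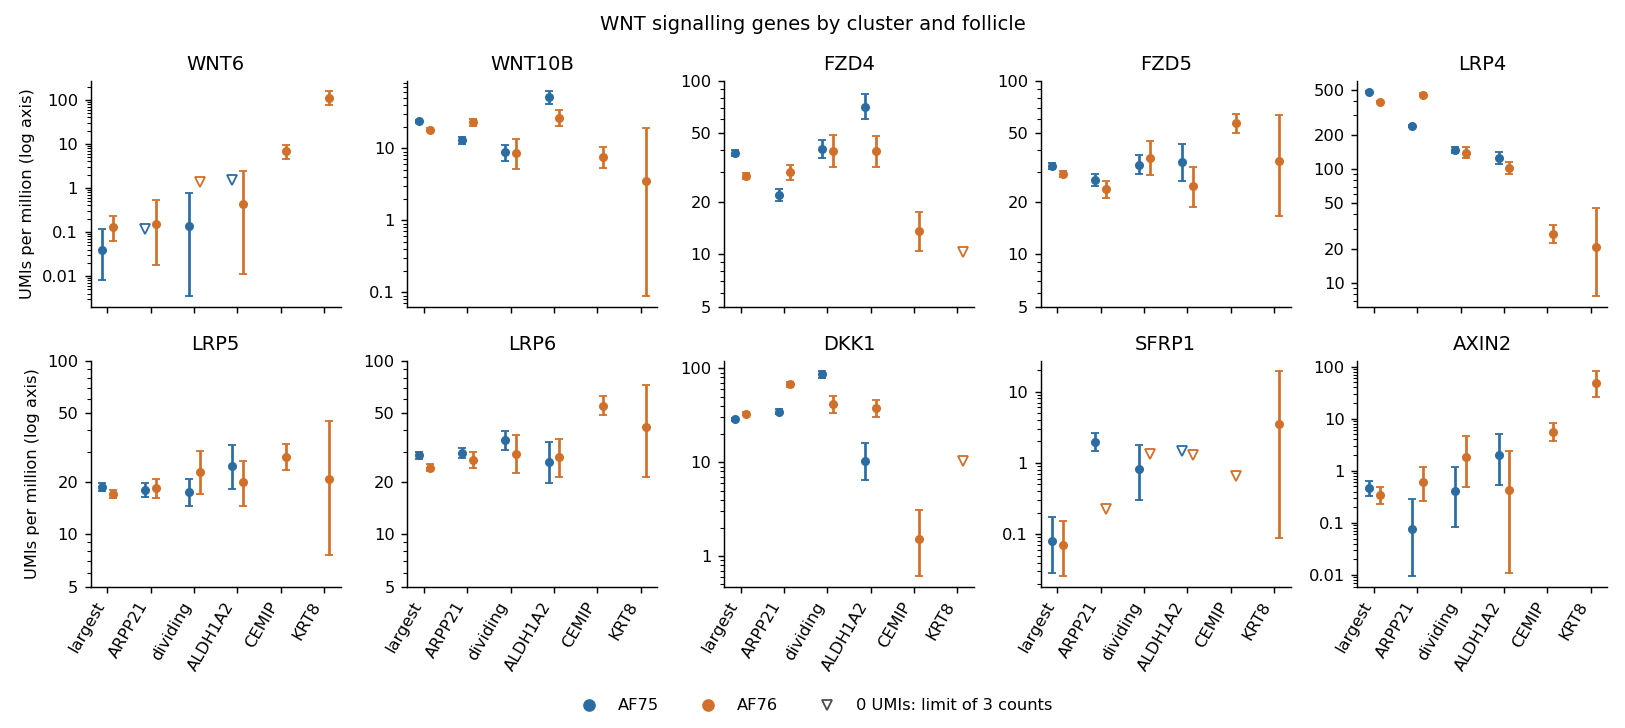
UMIs per 1000000 (log axis, scaled for each gene) of the 10 genes in 6 clusters of AF75 (blue) and AF76 (orange), with exact 95% counting intervals; open triangles mark 0 UMIs and stand at the limit that 3 counts give. WNT6 and AXIN2 are highest in the KRT8 cluster, at 111 and 48.5 CPM, where LRP4 is at 20.8 CPM.

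WNT6 and AXIN2 were concentrated in the 2 clusters that came from AF76. Of the 78 WNT6 UMIs of AF76, 32 lay in the 30 cells of the KRT8 cluster and 31 in the 659 cells of the CEMIP cluster, against 11 in the 5949 cells of the largest cluster. This gave 111 CPM in the KRT8 cluster (interval 75.8 to 156), 6.73 CPM in the CEMIP cluster (4.57 to 9.55) and 0.128 CPM in the largest cluster (0.064 to 0.229). The KRT8 cluster exceeded the CEMIP cluster 16.5-fold (9.74 to 27.9). WNT6 UMIs were held by 16 of 30 cells in the KRT8 cluster (53.3%) and by 30 of 659 in the CEMIP cluster (4.55%), at medians of 9885.5 and 6386 UMIs per cell. In AF75 the 4 WNT6 UMIs lay in 3 cells of the largest cluster and 1 dividing cell. Under 4 of 5 settings that clustered the cells again, most KRT8 cells fell in the same cluster as most CEMIP cells, and WNT6 stood at 12.4 to 12.9 CPM in that joint cluster.

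AXIN2, the feedback gene, had a like distribution in AF76. The KRT8 cluster held 14 of its 83 UMIs (48.5 CPM, interval 26.5 to 81.4) and the CEMIP cluster 26 (5.64 CPM, 3.68 to 8.26), against 29 in the largest cluster (0.338 CPM, 0.226 to 0.485). AXIN2 UMIs were held by 12 of 30 cells of the KRT8 cluster, by 25 of 659 of the CEMIP cluster (3.79%) and by 28 of 5949 of the largest cluster (0.471%). In AF75 its 44 UMIs were spread thinly, with 0.461 CPM in the largest cluster and 0.078 CPM in the ARPP21 cluster. Without the CEMIP and KRT8 clusters, the AXIN2 level was 0.396 (AF75) and 0.413 CPM (AF76), a ratio of 1.04 (0.670 to 1.63), and the WNT6 ratio was 4.01 (1.28 to 16.6). CEP112, whose model overlaps AXIN2, was also higher in these clusters, at 17.3 CPM in the KRT8 cluster (5 UMIs) and 18.4 CPM in the CEMIP cluster against 5.33 CPM in the largest cluster of AF76, and its part in the AXIN2 counts was not tested.

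The 7 cells that held both WNT6 and AXIN2 lay in the KRT8 cluster, where 21 held either and 6.4 with both would follow from the 2 shares alone. In the CEMIP cluster 0 cells held both and 55 held either, where 1.14 with both would follow from the shares, and in each other cluster of either follicle 0 held both, with under 0.06 to follow. Over all cells of AF76 the 7 cells stood against 0.957 expected from the shares at equal depth, a ratio of 7.31 (interval 2.94 to 15.1), and the excess was not present within the KRT8 cluster, where the 7 stood against 6.4.

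**Figure D3:**
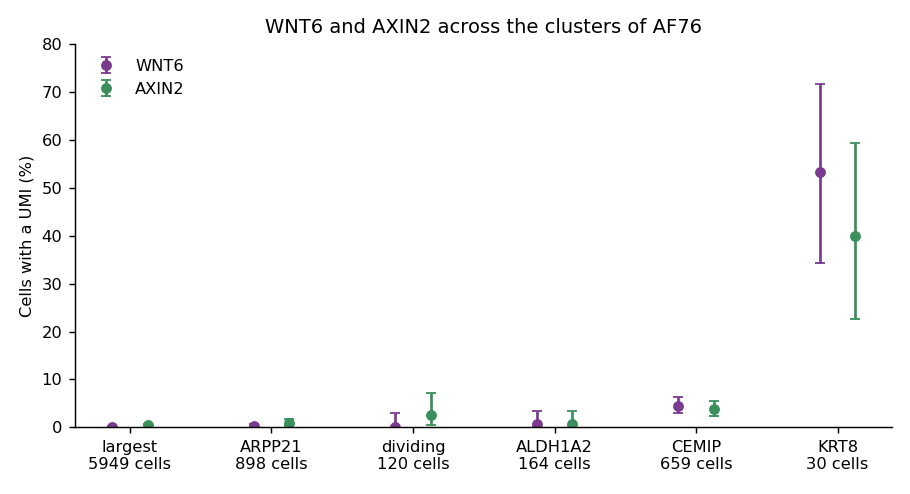
Percent of AF76 cells with at least 1 UMI of WNT6 (purple) or AXIN2 (green) in each cluster, with exact 95% binomial intervals and the number of cells under each cluster. The KRT8 cluster stands at 16 and 12 of 30 cells, the CEMIP cluster at 4.55% and 3.79%, and no other cluster shown exceeds 2.5%.

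The other genes of the KRT8 cells are given as description of where WNT6 lay. FSHR, the follicle-stimulating hormone receptor of granulosa cells, stood at 97.0 CPM there, at 34.3 CPM in the CEMIP cluster and at 0.361 CPM in the largest cluster of AF76, while INHA stood at 1805, 2387 and 24530 CPM. Of 10 immune markers 1 had a UMI in the KRT8 cluster and PTPRC was at 0, and of 4 endothelial markers 2 had a UMI and CDH5 was at 0. Of 9 theca and stroma markers 7 had a UMI, summing to 142 CPM against 558 CPM in the largest cluster, of which INSL3 made 52.0 and 552 CPM. The other 8 summed to 90.1 CPM against 6.74 CPM, with COL1A1 at 48.5 against 1.12 CPM and ACTA2 at 24.2 against 0.874 CPM, while CYP17A1 and DCN were at 0. No cell of the KRT8 cluster and 24 of the CEMIP cluster were among the barcodes of highest doublet score. Whether RNA of other cells had a part in the WNT6 and AXIN2 counts was not tested beyond these values.

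By CPM, the receptor and co-receptor genes split the CEMIP cluster from the largest cluster of AF76 in both directions. All 7 well-counted members were past 1.5-fold, 3 higher and 4 lower, beside 36.9% of 8678 genes higher and 15.0% lower. The 3 higher members were LRP6, at 55.3 against 24.3 CPM (ratio 2.28, interval 1.99 to 2.60), FZD5, at 57.1 against 28.9 CPM (1.97, 1.73 to 2.24), and LRP5, at 28.0 against 17.2 CPM (1.63, 1.35 to 1.95). Cells of the CEMIP cluster held fewer UMIs, a median of 6386 against 14220, and the median gene was itself 0.33 higher there on the log2 scale. Counted per cell, FZD5 had 0.399 UMIs in the CEMIP cluster and 0.417 in the largest, LRP6 0.387 and 0.350, and LRP5 0.196 and 0.247. The higher CPM of these 3 genes thus came with about the same or a lower number of molecules per cell. On that scale 4 of the 7 members, all lower, were past 1.5-fold, and the share of all genes past it was not computed. The fewer UMIs of these cells lower genes in general on that scale, so the 4 are not read as particular to the members. Stroma and smooth muscle markers moved with this contrast. Of the 9 theca and stroma markers 7 were higher in the CEMIP cluster, and the 8 other than INSL3 summed to 110 against 6.74 CPM, with ACTA2 at 62.7 against 0.874 CPM, DCN at 19.1 against 0.548 and LUM at 13.9 against 0.140. INSL3 itself was at 34.7 against 552 CPM. Of 4 endothelial markers 1 was higher, VWF, at 23.6 against 0.466 CPM, with CDH5 at 0, and the 4 summed to 26.9 against 11.1 CPM. The 10 immune markers summed to 10.8 against 10.9 CPM with PTPRC at 0. The part of such cells in the member values was not tested. At 5000 UMIs per cell, LRP6 was seen in 24.5% of CEMIP cells and 11% of cells of the largest cluster, and FZD5 in 22% and 13%.

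LRP4, DKK1, FZD4 and WNT10B were the 4 lower members in the CEMIP cluster on either scale. LRP4 stood at 27.1 CPM there (interval 22.6 to 32.3) against 392 CPM in the largest cluster, 14.5-fold lower (12.1 to 17.4), and at 0.190 against 5.66 UMIs per cell. DKK1 had 7 UMIs in the CEMIP cluster (1.52 CPM) against 2820 in the largest (32.9 CPM). FZD4 had 13.7 against 28.5 CPM, and WNT10B 7.59 against 18.1 CPM. In the KRT8 cluster LRP4 had 6 UMIs (20.8 CPM, 7.63 to 45.2), WNT10B had 1, and FZD4 and DKK1 had 0, which allows up to 10.4 CPM, while LRP6 had 12 UMIs (41.6 CPM), FZD5 10 (34.6 CPM) and LRP5 6 (20.8 CPM). The LRP4 levels of both clusters lay at or below that of the red-cell and leukocyte barcodes, and are read as background, though 1 CEMIP cell held 11 LRP4 UMIs. Leukocyte barcodes of AF76 had FZD4 at 31.9 CPM (3 UMIs) and WNT10B at 10.6 CPM (1 UMI), above the CEMIP cluster. The red-cell barcodes of AF76 had 5.58 and 0 CPM. The FZD4 and WNT10B levels of the CEMIP cluster are thus not read as above background. The clusters where WNT6 and AXIN2 were highest thus had lower LRP4 and FZD4 than the largest cluster, and the CEMIP cluster lower DKK1 and WNT10B. In the KRT8 cluster the WNT10B interval, 0.0877 to 19.3 CPM, reached the 18.1 CPM of the largest cluster. Its 0 DKK1 UMIs came from 30 cells, too few for a gene whose UMIs lay mostly in a few cells. LRP5, LRP6 and FZD5 were counted in both clusters, as in the largest cluster.

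Within the largest cluster 0 of 7 members were past the fold between follicles, beside 1.81% of genes, and in the dividing cluster 1 of 6 was, beside 11.1% of genes. In the ARPP21 cluster 3 of 7 were past it, all higher in AF76, beside 14.5% of genes. LRP4 had 240 CPM in AF75 and 452 in AF76 there (ratio 1.88, interval 1.82 to 1.95), WNT10B 13 and 23 CPM (1.77, 1.51 to 2.07), and DKK1 34.7 and 67.7 CPM (1.95, 1.78 to 2.14). A finer division split this cluster unequally between follicles. A finer group led by CALCRL, ALPK2 and SLC10A4 held 1610 of the 2302 cells in AF75 (69.9%) but 121 of 898 in AF76 (13.5%), and the rest belonged almost wholly to a group led by the cholesterol synthesis genes INSIG1, HMGCS1 and MVD. In the CALCRL group LRP4 stood at 147 (AF75) and 505 CPM (AF76), WNT10B at 8.69 and 31.7 CPM. In the rest of the ARPP21 cluster, 692 and 777 cells, LRP4 stood at 440 (interval 426 to 454) and 444 CPM (432 to 456) and WNT10B at 22.1 and 21.6 CPM. The rest thus showed no follicle difference of LRP4 or WNT10B past counting error. The CALCRL group differed between follicles both in its share of the cluster and in these levels, and the parts of the 2 were not separated. The DKK1 level of the rest was 56.6 and 66.4 CPM.

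Against the largest cluster of the same follicle, the ARPP21 cluster had 3 of 7 members past the fold in AF75, all lower, beside 23.7% of genes, and 1 of 7 in AF76, higher, beside 6.8% of genes. In AF75 its ratios were 0.502 for LRP4 (interval 0.489 to 0.516), 0.545 for WNT10B (0.484 to 0.613) and 0.573 for FZD4 (0.523 to 0.627). In AF76 the ratios of the same genes were 1.15 for LRP4 (1.12 to 1.18), 1.27 for WNT10B (1.12 to 1.44) and 1.05 for FZD4 (0.939 to 1.16), and the 1 member past the fold was DKK1, at 67.7 against 32.9 CPM (2.06, 1.91 to 2.22). LRP4 and WNT10B lay on opposite sides of the largest cluster in the 2 follicles. LRP5, at 0.957 and 1.08, and LRP6, at 1.03 and 1.10, stayed within the counting error of 1 in both.

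The dividing cluster was low in WNT10B and LRP4 in both follicles. It had 3 of 7 members past the fold from the largest cluster in AF75, beside 20.7% of genes, and 2 of 7 in AF76, beside 12.6%. LRP4 stood at 148 against 478 CPM in AF75 (ratio 0.310) and at 140 against 392 CPM in AF76 (0.357). WNT10B stood at 8.74 against 23.8 CPM in AF75 (0.368) and at 8.55 against 18.1 CPM in AF76 (0.473). DKK1 was 3.01 times higher in the dividing cells of AF75 (86.2 against 28.6 CPM, interval of the ratio 2.75 to 3.29) and 1.27 times in those of AF76 (41.9 against 32.9 CPM, 1.02 to 1.57). The 93 DKK1 UMIs of the dividing cluster of AF76 lay in 11 cells, so a few cells set this ratio and its interval is too narrow.

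The ALDH1A2 cluster had higher WNT10B and FZD4 and lower LRP4 than the largest cluster, though LRP4 was still its most abundant member. In AF75 4 of 7 members were past the fold, 2 higher and 2 lower, beside 8.41% of genes, and in AF76 1 of 7 was, lower, beside 9.8% of genes. WNT10B stood at 51.0 against 23.8 CPM in AF75 (ratio 2.14, interval 1.74 to 2.61) and at 26.5 against 18.1 CPM in AF76 (1.47, 1.12 to 1.89). FZD4 stood at 71.3 against 38.5 CPM in AF75 (1.85, 1.55 to 2.19) and at 39.5 against 28.5 CPM in AF76 (1.39, 1.11 to 1.71). The ratios of both genes lay above 1 in both follicles and past 1.5 in AF75. LRP4 stood at 125 (AF75) and 102 CPM (AF76), a ratio of 0.262 and 0.261 to the largest cluster. DKK1 was 0.363 of the largest cluster in AF75 (10.4 CPM, 21 UMIs) and 1.15 in AF76 (37.8 CPM, 87 UMIs). These UMIs lay in 11 cells of each follicle, with 35 of them in 1 cell of AF76.

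SFRP1 UMIs lay mainly in one group of cells of AF75. The ARPP21 cluster held 51 of its 63 UMIs (1.99 CPM, interval 1.48 to 2.61), and 48 of these lay in 31 of the 1610 cells of the CALCRL group. The dividing cluster held 6 UMIs and the largest cluster 6 (0.079 CPM). In AF76 the ARPP21 cluster had 0 SFRP1 UMIs in 898 cells, which allows up to 0.224 CPM, and its CALCRL group of 121 cells had 0, which allows up to 1.70 CPM, beside 2.74 CPM in AF75 (2.02 to 3.64). SFRP1 and LRP4 were found together in 21 cells of AF75, against 35.9 expected at equal depth (ratio 0.585, 0.362 to 0.895). The expected number took no account of cluster, and LRP4 was lower in the ARPP21 cluster of AF75 (240 CPM) than in its largest cluster (478 CPM). Whether the shortfall went beyond this was not tested.

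DKK1 differed from the other members by how unevenly its UMIs were spread over cells. If all cells of a follicle had held DKK1 at one common level, 3042 cells of AF75 and 3017 of AF76 would have held a UMI, and 743 and 536 did. The highest 1% of cells held 51.3% of the DKK1 UMIs in AF75 and 56.7% in AF76, with up to 47 and 65 UMIs in a cell. Cells with 10 or more UMIs numbered 122 in AF75 and 133 in AF76, 1.30% and 1.70% of cells, and held 59.2% and 74.5% of all DKK1 UMIs. The variance over cells was 14.4 and 21.6 times the mean, and 7 of 4199 genes of AF75 and 8 of 4198 of AF76 at 10 to 50 CPM had a higher value, while the median gene had 1.07 and 1.09. A few cells thus weigh heavily in the DKK1 ratios given for clusters and follicles, whose counting intervals are too narrow for this spread.

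The cells rich in DKK1 were no single cluster. In AF75 69 of the 122 lay in the largest cluster (1.08% of its cells), 30 in the ARPP21 cluster (1.30%) and 22 in the dividing cluster (4.86%). In AF76 94 of the 133 lay in the largest cluster (1.58%), 33 in the ARPP21 cluster (3.67%) and 4 in the dividing cluster (3.33%), and the CEMIP and KRT8 clusters held 0. In the finer division, the INSIG1 group had 2.84 times the DKK1 level of the largest finer group in AF75 (50.3 against 17.7 CPM) and 2.27 times in AF76 (59.2 against 26.1 CPM). Of the DKK1-rich cells, 16 in AF75 (13.1%) and 10 in AF76 (7.52%) were among the barcodes of highest doublet score, beside 6.9% of all cells of either follicle.

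DKK1-rich cells carried the receptor genes at about the level of other cells. LRP4 had 447 against 394 CPM in AF75 (ratio 1.13, interval 1.05 to 1.22) and 434 against 370 CPM in AF76 (1.17, 1.09 to 1.25). LRP5 and LRP6, the proteins that DKK1 binds, had ratios of 1.26 and 0.972 in AF75 and of 0.924 and 1.10 in AF76, with intervals that span 1. FZD5 had a ratio of 0.785 in AF75 (0.560 to 1.07) and 0.694 in AF76 (0.497 to 0.944). AXIN2 and WNT6 had 0 UMIs in the DKK1-rich cells of both follicles, whose upper interval bounds were 5.90 and 2.44 times the level of other cells for AXIN2.

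**Figure D4:**
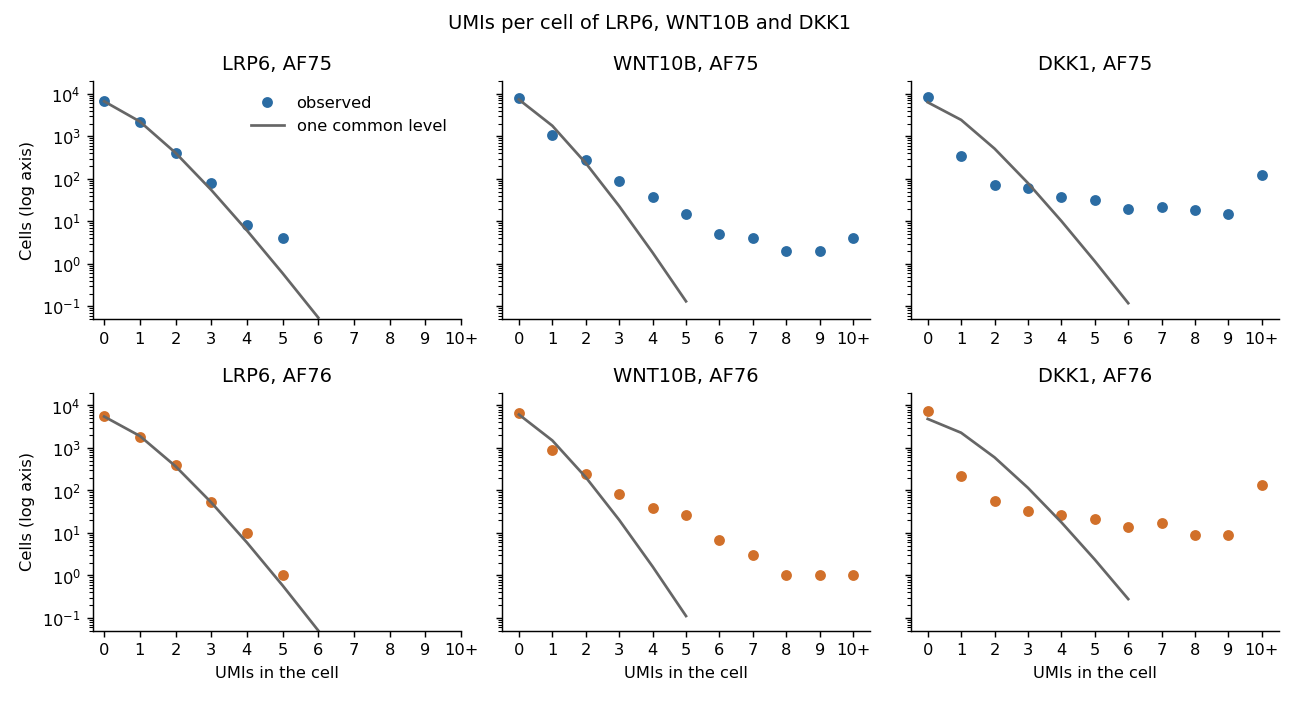
Number of cells (log axis) by the UMIs they held of LRP6, WNT10B and DKK1 in AF75 (top) and AF76 (bottom); points are the observed cells and the grey line the cells that one common level in all cells would give, at the depth of each cell. LRP6 follows the line, WNT10B has fewer cells than the line at 1 UMI (1093 against 1771 in AF75 and 876 against 1501 in AF76) and more from 2 UMIs up, and DKK1 has 122 and 133 cells at 10 UMIs or more.

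The other members were spread more evenly. LRP5 and LRP6 were found in 0.97 to 0.98 of the cells that a common level would give, with a variance of 1.06 to 1.07 times the mean, like the median gene. FZD4 and FZD5 were found in 0.84 to 0.88 of those cells. WNT10B was found in 1534 cells of AF75 against 2031 at a common level (0.755) and in 1276 of AF76 against 1727 (0.739), with up to 33 UMIs in a cell of AF75 and 10 in one of AF76. LRP4 was found in 0.847 and 0.848 of the cells, with a variance of 4.53 and 4.43 times the mean.

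Ligand, receptor and inhibitor genes were found in the same cells about as often as their shares at equal depth gave. For each of the 21 pairs of the 7 well-counted members, the number of cells with both genes was divided by the number expected within 10 bins of UMIs per cell. The ratios ran from 0.908 (LRP6 and DKK1) to 1.17 (WNT10B and FZD4) in AF75, with a median of 1.01, and from 0.867 (FZD5 and DKK1) to 1.08 (FZD5 and LRP6) in AF76, with a median of 1.00. WNT10B and FZD4 were found together in 544 cells of AF75 against 465 expected (ratio 1.17, interval 1.07 to 1.27), but in 369 cells of AF76 against 377 expected (0.980, 0.882 to 1.08). In the largest cluster alone the WNT10B and FZD4 ratio was 1.09 in AF75, with an interval of 0.991 to 1.20. None of the 21 ratios was past 1.5-fold in either follicle. The 6 pairs with LRP4 could not have been so upwards, since LRP4 was found in so many cells that about 1.20 is the highest ratio its share allows. The other 15 ratios ran from 0.908 to 1.17 in AF75 and from 0.867 to 1.08 in AF76, and those with DKK1 count its single-UMI cells too.

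**Figure D5:**
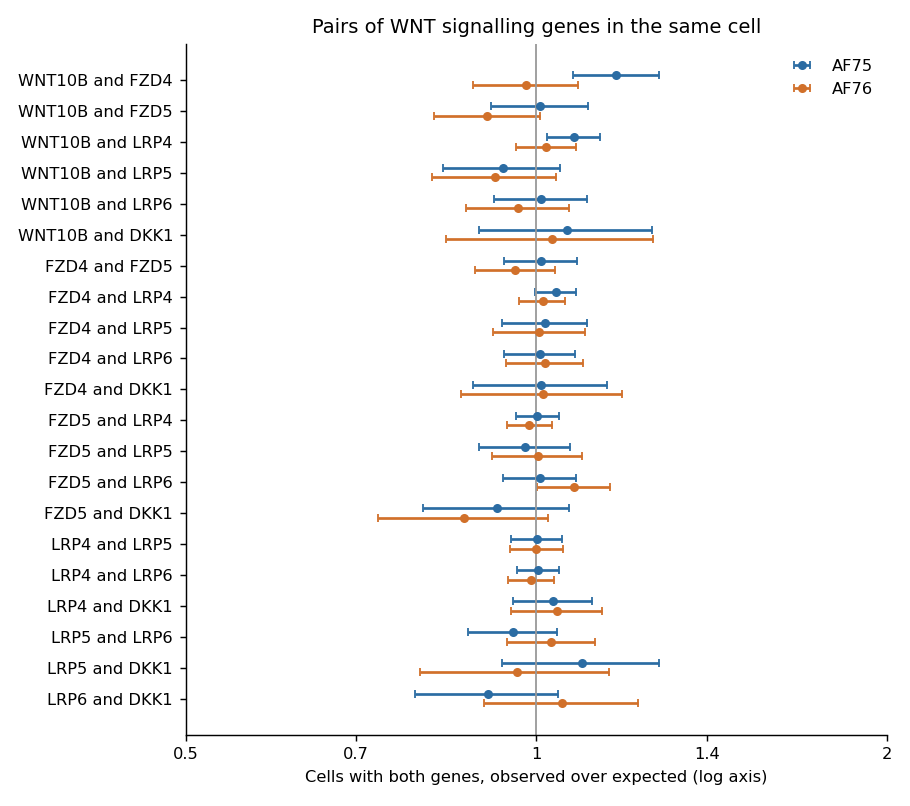
Cells holding both genes of a pair, observed over expected at equal depth, for the 21 pairs of the 7 well-counted genes in AF75 (blue) and AF76 (orange) on a log axis, with exact 95% counting intervals. The points lie between 0.867 and 1.17 around the grey line at 1.

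With the rare genes, WNT6 went together with LRP6 in 25 cells of AF76 against 15.9 expected (ratio 1.57, interval 1.02 to 2.32), and with LRP4 in 18 against 38.1 expected (0.472, 0.280 to 0.746). AXIN2 went with LRP4 in 42 cells of AF76 against 57.8 expected (0.727, 0.524 to 0.983) and in 36 of AF75 against 36.9 (0.976, 0.683 to 1.35). The WNT6 cells of AF76 lay mainly in the CEMIP and KRT8 clusters, where LRP4 was low.

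Of the 7, LRP4 had the highest correlations with other genes over cells. Over the cells of a follicle, its Pearson correlation on the scale of ln(1 + UMIs per 10000) was 0.392 in AF75 (9362 cells) and 0.418 in AF76 (7843 cells) with INHA, 0.314 and 0.421 with SDC4, a cell-surface proteoglycan, and 0.365 and 0.366 with AMIGO2, a membrane adhesion protein. Within the largest cluster the values were lower, at 0.086 and 0.058 for INHA, 0.132 and 0.109 for SDC4, and 0.105 and 0.094 for AMIGO2, and the gene most like LRP4 there was STRIP2, at 0.186 and 0.183. For the other 6 members the highest mean correlations were 0.134 for WNT10B, 0.107 for FZD4 (with FAM171B), 0.066 for FZD5 (with CRIM1), 0.059 for LRP5 (with STMN1), 0.076 for LRP6 (with DST) and 0.082 for DKK1 (with TUBA1B). Correlations this weak in sparse counts are given only to show that no close match was found. LRP4 was seen in 83.0% (AF75) and 83.2% (AF76) of cells, and each of the other 6 in at most 29.4%. Whether LRP4 would stand apart from them at like counts was not tested. LRP4 also rose with the depth of a cell, weakly in AF75 (r 0.062) and more in AF76 (r 0.257). The parts of depth and cluster in its correlations were not separated. Cells of 1 library share its depth and its free RNA and are not independent replicates.

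The rest of the pathway was read from a list of 77 other genes, 74 of them in the gene list and 28 with enough UMIs to compare. Between follicles 2 were past 1.5-fold higher in AF76 and 2 lower, with a median absolute log2 ratio of 0.16, beside 5.65% of all genes. RSPO3, a secreted R-spondin that strengthens WNT signals, had 57268 UMIs in AF75 (515 CPM) and 28404 in AF76 (261 CPM), a ratio of 0.506 (interval 0.499 to 0.514). BCL9, a beta-catenin cofactor, had 78.1 and 19.7 CPM (0.252, 0.240 to 0.264). WNT2, a ligand, had 268 UMIs in AF75 and 484 in AF76 (2.41 and 4.44 CPM, ratio 1.84), and BCL9L, a relative of BCL9, had 145 and 213 UMIs (1.30 and 1.96 CPM, ratio 1.50006, just past the limit). RSPO3 in the ARPP21 cluster was at 1150 CPM in AF75 and 586 in AF76, and BCL9 at 208 and 30.7 CPM, so that in this cluster both ran opposite to LRP4, WNT10B and DKK1 between the follicles.

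Among the receptors of the list, PTK7 had 37.8 and 42.3 CPM, RYK 29.1 and 30.4 CPM, and FZD3 15.5 and 15.4 CPM, below LRP5. LGR4, a receptor of R-spondins, had 25.6 and 28.7 CPM and ZNRF3, the ligase that removes Frizzled receptors, 8.83 and 9.75 CPM. Of the inhibitors DKK3, a divergent relative of DKK1, had 355 and 354 CPM, DKK2 14.0 and 11.5 CPM, and SFRP4 2 and 189 UMIs. In the cytoplasm CSNK1A1 had 414 and 440 CPM, CTNNB1, which encodes beta-catenin, 191 and 172 CPM, and APC 162 and 145 CPM. The nuclear factors TCF7L2 and TCF7 had 11.1 and 13.2 CPM and 6.58 and 4.88 CPM. WLS, needed to secrete WNT proteins, had 6.09 and 7.02 CPM and PORCN 1.67 and 1.71 CPM. Beside WNT2, the most abundant listed ligands were WNT9A, at 3.15 and 2.72 CPM, and WNT11, at 0.746 and 0.900 CPM. The 16 listed ligands found in the gene list all lay below WNT10B. WNT4, the other listed ligand, was not found there by name, so its level could not be compared with that of WNT10B. WNT7B had 62 UMIs in AF75, 53 of them in the ARPP21 cluster, and 2 in AF76. Of 10 feedback and target genes of the list only ZNRF3 had enough UMIs to compare, LEF1 had 101 and 93 UMIs, MYC 97 and 52, and SP5 41 and 1, with 27 of the 41 in the ARPP21 cluster. AXIN2 was thus not alone among these genes in its low count, and SP5 was higher in AF75 where AXIN2 was higher in AF76.

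In the CEMIP cluster against the largest cluster of AF76, 23 of the other pathway genes could be compared by CPM, and 12 were past the fold higher and 5 lower. LGR4 had 148 against 22.8 CPM, TCF7L2 66.0 against 10.5 CPM, DKK3 820 against 327 CPM and ZNRF3 28.9 against 8.81 CPM, where the background of all genes is the 36.9% higher and 15.0% lower given above. Lower were RSPO3, at 15.2 against 228 CPM, DKK2, at 0.434 against 11.7 CPM, and WNT2, at 0.434 against 5.38 CPM, with FZD6 and APC. SFRP4, a relative of SFRP1, had 165 of its 189 UMIs of AF76 in the CEMIP cluster (35.8 CPM). In the KRT8 cluster TCF7 had 31.2 CPM and FRZB, a secreted WNT inhibitor, 52.0 CPM.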

How the data were processed

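Somatic cells of 2 antral follicles were profiled with the 10x Genomics 3′ kit, 1 library per follicle. The deposited UMI counts per gene and barcode are whole numbers that the authors made with Cell Ranger on Sscrofa11.1, with no filter or normalization after its barcode calling. Symbols were read from the deposited gene list. Barcodes with 2000 to 5000 genes and under 7% of UMIs from mitochondrial genes were kept as cells. Doublets were not removed here, unlike in the study. The 6.9% of barcodes with the highest doublet score, computed in the manner of DoubletFinder, were left out as an alternative. UMI totals were 111226504 and 108920601, and their counting error sets the precision of every value. The numbering of the samples as follicle 1 and 2 was taken from the labels, and the names AF75 and AF76 from the deposited data.

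UMIs were summed over cells and divided by the total, per 1000000 UMIs (CPM), with exact Poisson intervals. Shares of cells have exact binomial (Clopper-Pearson) intervals and ratios exact conditional ones, all at 95% and for counting error only. A value of 0 was read against a floor of 3 counts. There was no replicate follicle, so no test was run and no p-value is given. The ratio and co-detection steps were tested on simulated data. A gene was compared between follicles with at least 200 UMIs in one of them. Between clusters, and between follicles within the dividing cluster, a gene needed 20 UMIs expected in the smaller group at the pooled rate, a rule chosen after seeing the data. Within the largest and the ARPP21 clusters, follicles were compared for genes with at least 200 UMIs in one of them. Red-cell barcodes had at least 20% of their UMIs from HBB, HBM and ALAS2, and leukocyte barcodes at least 10 UMIs of at least 3 immune markers, also chosen after seeing the data.

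Seurat 5.3.0 in R 4.3.3 normalized to 10000 UMIs per cell, integrated the follicles by anchors over 2000 variable genes with the WNT genes left out, and clustered on 40 components. The study named 6 clusters. No resolution in steps of 0.02 gave 6 with these settings, so the lowest that gave more, 0.22 with 7 clusters, was taken, and 0.36 with 10 for the finer division. Python 3.11.15 with SciPy 1.17.1, scikit-learn 1.9.0 and samtools 1.23.1 did the rest. Named were the 10 members, for each well-counted member the 3 genes of highest mean correlation (in the text the first for all but LRP4), the pathway genes past the fold and the 3 of highest CPM per role, and the leading genes of clusters. Genes outside this rule (SFRP4, DKK2, PORCN, MYC, SP5, WNT7B, FZD6, FRZB, STRIP2, AREG, CEP112 and the cell type markers) were chosen after their values were seen. The members and lists were chosen with earlier results of these data known. Sequences are RefSeq's for Sscrofa11.1, and all 10 members were matched by symbol.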

Additional observations from a re-analysis of the deposited data

Results flagged for a closer look

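WNT10B and LRP4 in the ARPP21 cluster moved opposite ways from the largest cluster in the 2 follicles. The log2 ratio to the largest cluster was higher in AF76 than in AF75 by 1.22 for WNT10B and by 1.20 for LRP4, with counting intervals on opposite sides of a ratio of 1. With 1 library per follicle, the difference was not tested.

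WNT6 was also present in barcodes outside the limits on genes and mitochondrial UMIs, which entered no comparison apart from the alternative with all barcodes and the choice of red-cell and leukocyte barcodes. The 7705 such barcodes of AF76 held 46 WNT6 UMIs in 40 barcodes, a level of 2.49 CPM (interval 1.82 to 3.32), and the 4927 of AF75 held 0, which allows up to 0.212 CPM. AXIN2 had 22 UMIs there in AF76 (1.19 CPM) and 5 in AF75 (0.353 CPM).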

How the results depend on the processing

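The number of members at 10 CPM or more in both follicles, 7, was the same under each alternative run. The number past 1.5-fold in the CEMIP cluster, 7, was the same under 7 alternatives, and 4 with UMIs per cell in place of CPM, where the log2 ratio turned from higher to lower for FZD5 (-0.065) and LRP5 (-0.34). The share of all genes past the fold was not computed for UMIs per cell. The members past the fold between follicles, 0, changed only with the limit on UMIs. With genes of at least 20 UMIs, or all genes with a UMI, 10 members entered and 3 were past the fold (WNT6, AXIN2 and SFRP1). The share of all genes past the fold at these limits was not computed, so the 3 are not read against other genes of low count. The other pathway genes past the fold numbered 3 to 5 beside 4. With each cell thinned to 5000 UMIs, 1 pair in AF76 (FZD5 and DKK1, ratio 0.663) was past 1.5-fold beside 0. The mean correlation of LRP4 with INHA was 0.405, 0.281 by Spearman, where AREG, STRIP2 and SDC4 came first, and 0.072 within the largest cluster. The 30 KRT8 cells kept a cluster of their own at resolution 0.8, and most of them fell in the cluster of the CEMIP cells without integration, with 20 components, with the WNT genes kept and with another seed, where WNT6 stood at 12.4 to 12.9 CPM in the joint cluster and 0.110 to 0.147 CPM in the largest. Leaving out the CEMIP and KRT8 clusters, the limit of 20 expected UMIs, the DKK1-rich cells and the per-cell scale were chosen after seeing the data. No other called value changed direction under the alternatives run. No paired analysis was possible because each follicle was 1 library and no fit or test was made. Depth limits WNT6, AXIN2 and SFRP1 to at most 83 UMIs in a follicle and the KRT8 cluster to 288689 UMIs, so that 0 UMIs there allow up to 10.4 CPM.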
